A study of Brassica rapa subsp. pekinensis with 2 samples.

Results

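The miRNAs described here are the mature sequences of Chinese cabbage (Brassica rapa subsp. pekinensis) named miR161, miR173 or miR400, or after the MIR genes with these numbers. Every name with these numbers was taken, whatever its reads, but the choice was made with earlier results of these data known. They are 7 of the 1220 miRNA names deposited, with 7 distinct sequences in 8 of 1359 records. Of these names 3 belong to miR161 and 4 to miR400. No name with the number of miR173 was found, so miR173 is not analysed here. ‘Ant’ is 1 small RNA library of anthers of mixed developmental stages, and ‘Mix’ is 1 small RNA library of whole seedlings with 4 true leaves, taken with root, stem and leaf. Both come from the double haploid line ‘FT’, a line made homozygous from a cultured microspore. By the sample labels, seeds for both were vernalized at 4 °C for 20 days. The published methods mention vernalization for ‘Ant’ only. The sources used here do not say how many plants went into each library. The table holds miRNAs only, so the tissue labels could not be set against marker genes. With 1 library per group there is no replicate error, and tests on reads compare these libraries and not anthers with seedlings.

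miR161, miR173 and miR400 are linked through pentatricopeptide repeat (PPR) genes, a very large plant gene family of RNA-binding proteins that act mostly in mitochondria and chloroplasts. In Arabidopsis, miR161 and miR400 direct the cleavage of PPR transcripts, and miR173 cuts the TAS1 and TAS2 transcripts, which are then turned into phased trans-acting siRNAs, several of which also target PPR transcripts. PPR proteins include restorers of fertility in plants with cytoplasmic male sterility, a trait seen in anthers. A plant miRNA is cut from a hairpin precursor as a duplex of a 5′ arm and a 3′ arm, with short 3′ overhangs. In most cases mainly a single strand of the duplex is loaded into an ARGONAUTE protein.

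The mature sequences are shown first, because 3 of the 7 differ by only a few bases from the B. rapa sequence of the same family and listed arm. They are written 5′ to 3′ as deposited, with the seed, bases 2 to 8, in capitals.
bra-miR161-5p: tCAATGCActgaaagtgacta
aly-miR161-5p.2_1ss5TC: tCAACGCAttgaaagtgacta
bra-miR161-3p: gTCACTTTcaatgcgttgatc
bra-miR400-5p: tATGAGAGtattataagtcac
ath-miR400_R+2: tATGAGAGtattataagtcacta
bra-miR400-3p: gACTTATAatgatctcatgaa
aly-miR400-3p: gACTTATAataatctcatgaa

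By seed they fall into 5 groups. The miR400 5′ sequences share a seed, as do the miR400 3′ sequences, and each miR161 sequence has a seed of its own. None of these seeds occurred in another of the 1152 distinct sequences of the table. The 4 sequences assigned to a 5′ arm started with T, the first base of 36.1% of all distinct sequences. The 3 assigned to a 3′ arm started with G, the first base of 13.9%. The length was 21 bases for 6 of the members, as for 49.1% of all distinct sequences, and 23 bases for ath-miR400_R+2. Counting positions from 1 at the 5′ end, aly-miR400-3p differs from bra-miR400-3p by G11A. Against bra-miR161-5p, aly-miR161-5p.2_1ss5TC carries T5C and C9T. Each of these miR161 sequences is 1 substitution from the miRBase entry aly-miR161-5p.2, by T9C for bra-miR161-5p and by T5C for the other. In Arabidopsis, miR161 is cut from its hairpin in overlapping registers.

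The MIR161 and MIR400 hairpins and the A05 hairpin that holds aly-miR400-3p are given as deposited, with the member sequences in capitals, to show how the arms lie. The precursor on the opposite strand of MIR161, which holds aly-miR161-5p.2_1ss5TC, is described with that member.
MIR161 (A05, - strand, 131 bases): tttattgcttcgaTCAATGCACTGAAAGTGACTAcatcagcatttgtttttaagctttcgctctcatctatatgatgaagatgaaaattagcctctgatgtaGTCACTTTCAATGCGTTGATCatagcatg
MIR400 (A09, - strand, 141 bases): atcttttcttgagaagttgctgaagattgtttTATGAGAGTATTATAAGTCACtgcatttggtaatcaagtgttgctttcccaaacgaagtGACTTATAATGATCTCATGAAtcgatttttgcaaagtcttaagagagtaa
miR400 hairpin of A05 (- strand, 95 bases): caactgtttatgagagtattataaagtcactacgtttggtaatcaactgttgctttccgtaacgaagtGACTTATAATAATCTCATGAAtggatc

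MIR161 is listed at A05 13241955 to 13242085 and MIR400 at A09 25271992 to 25272132. The sources used here do not name the genome build of the small RNA table. Both positions have the same start and end as the MIR161 and MIR400 genes of RefSeq's assembly CAAS_Brap_v3.01, and 78 of the 88 precursor positions listed for B. rapa miRBase entries fall exactly on a RefSeq gene of that assembly. There, MIR161 lies within the span of the lncRNA gene LOC117134046 and MIR400 within that of the protein-coding gene LOC103840148. The RefSeq table used here gives spans without exons, so intron and exon were not told apart. Strands were not compared for any of the gene overlaps given here, so these genes are not shown to be hosts of the hairpins. The shorter miR400 hairpin is listed at A05 16908752 to 16908846, within the span of the protein-coding gene LOC103874755, and by its listed position it overlaps MIR5654A. Listed positions on the - strand have to be read with care. For all 27 hairpins on the - strand whose sequence lies inside a longer listed one, the listed start was not the one the sequence gives, while it was for all 23 such hairpins on the + strand.

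In the deposited folds, bra-miR161-5p and bra-miR161-3p each had 20 of 21 bases paired, and bra-miR400-5p and bra-miR400-3p each had 19 of 21. Both duplexes leave a 3′ overhang of 2 bases at either end, the form that a Dicer-like enzyme leaves. The folding energies were -58.9 kcal/mol for MIR161, -56.9 kcal/mol for MIR400 and -35.1 kcal/mol for the miR400 hairpin of A05, against a median of -70.0 kcal/mol over the 744 distinct precursors with an energy. The index that scales energy by length and GC percent (MFEI) was 1.3 for MIR161, 1.2 for MIR400 and 1.1 for the A05 hairpin, and its median over all precursors was 1.30.

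**Figure D1:**
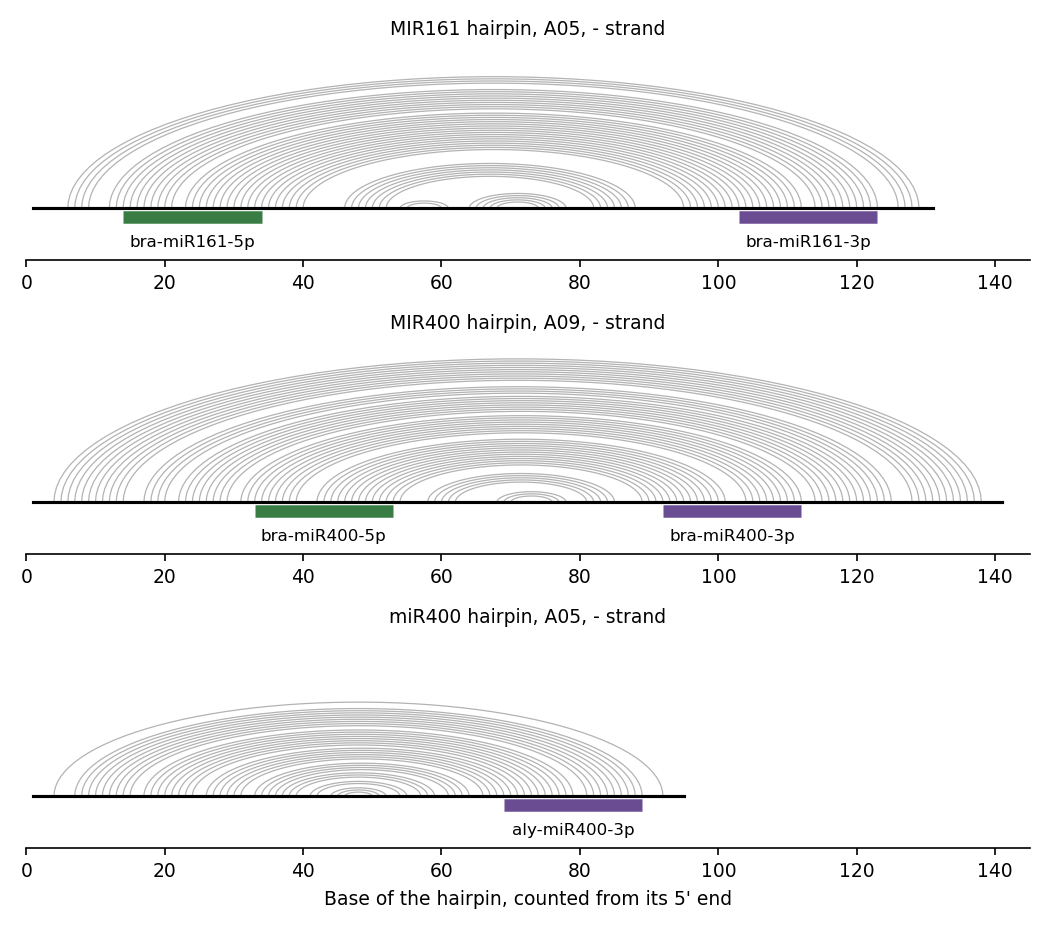
Folds of the 3 hairpins as deposited, with the base of the hairpin from its 5′ end on the horizontal axis, an arc for each base pair, and coloured bars for the member sequences (green for 5′ arms, violet for 3′ arms). The arms of MIR161 (bases 14 to 34 and 103 to 123) and of MIR400 (bases 33 to 53 and 92 to 112) lie opposite each other in the stem, and the A05 hairpin holds a member on its 3′ side only, at bases 69 to 89.

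The depth was similar in both libraries, at 1346716 miRNA reads in ‘Ant’, against 1393755 in ‘Mix’ when names that share a sequence were merged. The miR400 sequences were 0.759% of them in ‘Ant’ (Clopper-Pearson interval at 95%, 0.744% to 0.774%) and 0.178% in ‘Mix’ (0.171% to 0.185%). The miR161 sequences were 0.357% in ‘Ant’ (0.347% to 0.367%) and 0.227% in ‘Mix’ (0.219% to 0.235%). Every interval given here is at 95%. Without molecular identifiers, intervals and floors reflect the error of counting alone. In whole tissues, more cells of a type and more RNA per cell cannot be told apart.

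The reads of the miR400 family were higher in ‘Ant’. The sum over its 4 sequences was 10219.5 reads in ‘Ant’, against 2484.5 in ‘Mix’, and the log2 ratio of ‘Ant’ to ‘Mix’ was 1.99 (interval 1.93 to 2.06). All ratios are of normalized reads, which are the reads times 1 deposited factor per library. The family's arms went in opposite directions. On the 5′ arm the sum was 10007 reads in ‘Ant’, against 2041 in ‘Mix’ (log2 ratio 2.25, interval 2.18 to 2.32). On the 3′ arm it was 212.5 reads in ‘Ant’, against 443.5 in ‘Mix’ (log2 ratio -1.11, interval -1.36 to -0.87). The miR161 family moved less, with 4809 reads in ‘Ant’, against 3160 in ‘Mix’, and a log2 ratio of 0.56 (0.49 to 0.63). Its arms were both higher in ‘Ant’, by a log2 ratio of 0.46 on the 5′ arm (4226 reads in ‘Ant’, against 2967 in ‘Mix’) and of 1.55 on the 3′ arm (583 in ‘Ant’ and 193 in ‘Mix’). Arms are as listed, and the 5′ sum includes aly-miR161-5p.2_1ss5TC (10 reads in ‘Ant’ and 5 in ‘Mix’), which is listed on the strand opposite MIR161.

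To set the members against the table as a whole, each name's reads and the rest of each library were put through Fisher's exact test (two-sided) and a chi-square test. Calls required p of no more than 0.05 in both tests together with an absolute log2 ratio above 1. Of the 7 members 4 were called (57.1%), and of all 1220 names 586 (48.0%). By direction, 2 members were higher in ‘Ant’ (28.6%, against 27.1% of all names) and 2 were lower (28.6%, against 20.9%). These shares are near those of the whole table, so the number of calls sets the members apart in neither direction. Over names with reads in both libraries the median log2 ratio was 0.71 for the 6 such members and 0.24 for all 1032.

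**Figure D2:**
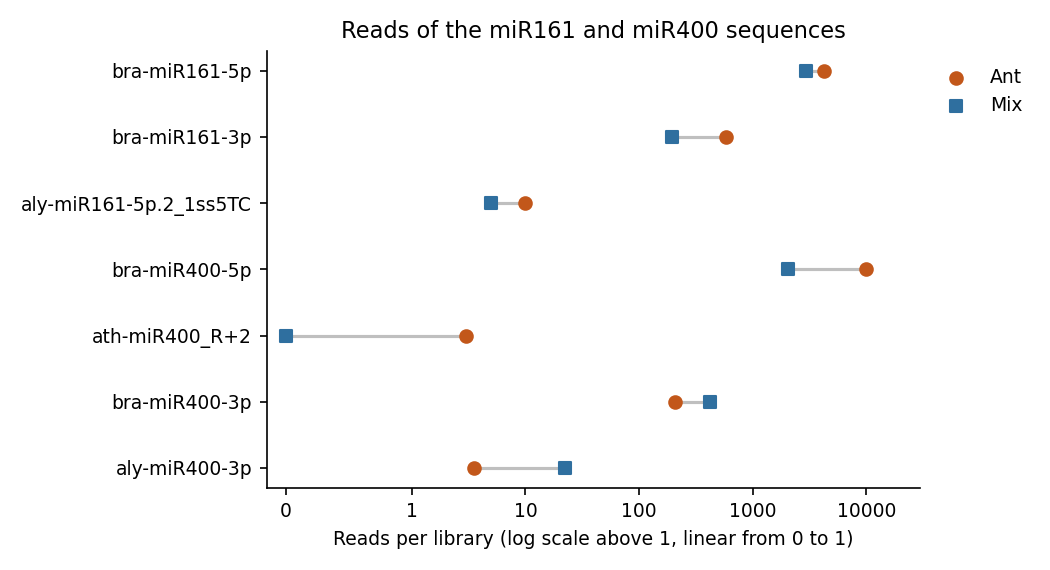
Reads of each member in ‘Ant’ (orange circles) and ‘Mix’ (blue squares), 1 library each, on a logarithmic axis that is linear between 0 and 1. The points span from 0 and 3 reads for ath-miR400_R+2 to 10004 reads for bra-miR400-5p in ‘Ant’, and bra-miR400-3p and aly-miR400-3p are the members with fewer reads in ‘Ant’.

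bra-miR400-5p, the strand that carries the name miR400 in Arabidopsis, was the most read member in ‘Ant’. It had 10004 reads in ‘Ant’, against 2041 in ‘Mix’, which is 4.75-fold higher after scaling, with a log2 ratio of 2.25 (interval 2.18 to 2.32). It was the 24th most read of the 1152 distinct sequences in ‘Ant’ and the 65th in ‘Mix’. Its log2 ratio lay above those of 75.8% of the 784 distinct sequences with at least 10 reads in 1 of the libraries, so increases of this size were common. Spread between plants cannot be estimated here, so edgeR's exact test was also run with a coefficient of variation set to 0.4, at which 31.0% of all names were called. bra-miR400-5p was among them (edgeR exact p = 0.00990).

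bra-miR400-3p, the other strand of the same duplex, had 209 reads in ‘Ant’, against 421 in ‘Mix’. This is 2.08-fold lower, with a log2 ratio of -1.06 (interval -1.30 to -0.81) and a Fisher's exact p of 6.47e-18. The ratio was just past the threshold of 1, and the interval crosses the threshold. The call was lost when reads were scaled by the miRNA reads of each library (log2 ratio -0.96) and with the set coefficient of variation (edgeR exact p = 0.217).

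aly-miR400-3p, named after Arabidopsis lyrata, had 3.5 reads in ‘Ant’, against 22.5 in ‘Mix’ (log2 ratio -2.73, interval -4.50 to -0.95, Fisher's exact p = 8.97e-05). It was also called with the set coefficient of variation (edgeR exact p = 0.0420). At so few reads the ratio depends on the pseudocount, and with 10 normalized reads added in both libraries it was -1.29. It is listed at the A09 hairpin and at the A05 hairpin. Its sequence is found exactly in the A05 hairpin. In the A09 hairpin it is not, and the nearest stretch there, the place of bra-miR400-3p, differs by G11A. The reads hold fractions, as do those of 42.5% of all names, and how the fractions arose is not given in the sources used here. Opposite aly-miR400-3p, the 5′ side of the A05 hairpin shares at most 16 bases in a row with bra-miR400-5p, and no other member lies exactly in this hairpin.

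ath-miR400_R+2 is bra-miR400-5p with 2 more bases at the 3′ end. It had 3 reads in ‘Ant’ and 0 in ‘Mix’, where a count of 0 allows up to 3 reads, or 2.15e-04% of the miRNA reads. No ratio is given because neither library exceeds that floor, and the difference was not detectable at this depth (Fisher's exact p = 0.121). The sequence is not found in the A09 hairpin at which it is listed. The bases there differ by G23A at the last position. That record lists the shorter form of the A09 hairpin with a start 62 bases from the place its sequence takes in the longer form.

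bra-miR161-5p was the most read member in ‘Mix’, with 4216 reads in ‘Ant’, against 2962 in ‘Mix’. The log2 ratio of 0.46 (interval 0.40 to 0.53) is 1.38-fold. It was beyond counting error (Fisher's exact p = 6.30e-47) but under the log2 threshold for a call. It was the 42nd most read distinct sequence in ‘Ant’ and the 55th in ‘Mix’, and its log2 ratio lay above those of 52.4% of the 784 sequences, close to the middle of the table. The order of the most read members thus differed between the libraries, with bra-miR400-5p above bra-miR161-5p in ‘Ant’ and below it in ‘Mix’.

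bra-miR161-3p, from the other side of the MIR161 hairpin, had 583 reads in ‘Ant’, against 193 in ‘Mix’. It was 2.93-fold higher, with a log2 ratio of 1.55 (interval 1.31 to 1.79) and a Fisher's exact p of 1.10e-45. With the set coefficient of variation the call was lost (edgeR exact p = 0.0721).

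aly-miR161-5p.2_1ss5TC had 10 reads in ‘Ant’, against 5 in ‘Mix’, with a log2 ratio of 0.95 and an interval of -0.73 to 2.85, so no difference was detectable at this depth (Fisher's exact p = 0.206). The name says 5′ arm, but the sequence is listed on the + strand, at A05 13241942 to 13242093, while MIR161 is on the - strand. All of its 21 bases match the reverse complement of the MIR161 hairpin, and on the strand of MIR161 itself at most 12 bases in a row do. The + strand precursor holds the reverse complement of the whole MIR161 hairpin, 13 bases in, and the listed positions of both strands give the same offset. The sequence pairs with bra-miR161-3p over 19 bases without a mismatch, with a 3′ overhang of 2 bases on each. No genome was searched for other places that hold this sequence, so its origin at this place was not tested. The small RNA kit joins its adapters to the ends of the RNA in a set orientation, so the sequence of a read gives its strand at this place. These reads were 0.208% of the miR161 reads in ‘Ant’ (Clopper-Pearson 0.0998% to 0.382%), against 0.158% in ‘Mix’ (0.0514% to 0.369%). Such listings are not particular to MIR161. Of the 1118 names with a precursor position, 201 have one that overlaps a precursor listed on the other strand. By sequence alone, 19.5% of the distinct sequences pair without a mismatch over 19 bases or more with another listed sequence. That share was counted without regard to strand or position, so it can include pairs that do not lie on opposite strands of 1 place.

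**Figure D3:**
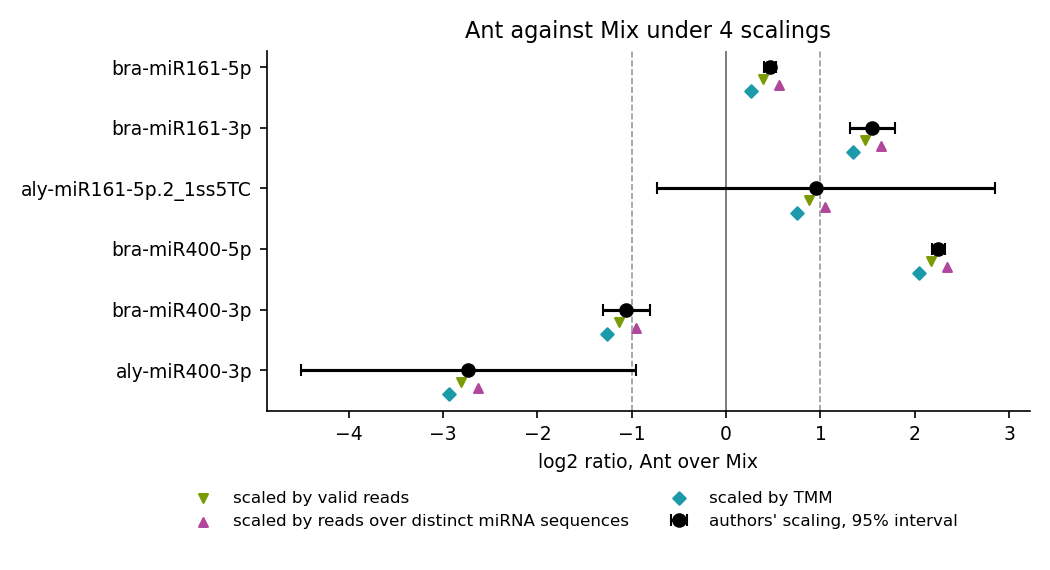
Log2 ratio of ‘Ant’ to ‘Mix’ for the 6 members with reads in both libraries, as black points with exact 95% intervals for the deposited scaling, and coloured marks for 3 other scalings, with the call thresholds as dashed lines. Each member keeps its side of 0 under the 4 scalings, and bra-miR400-3p (-1.06) lies at the threshold.

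The balance of the arms within a library does not depend on how the libraries are scaled. In miR400, the 3′ arm gave 2.07% of the reads of both arms in ‘Ant’ (Clopper-Pearson 1.81% to 2.37%, 10219 reads) and 17.9% in ‘Mix’ (16.4% to 19.4%, 2485 reads), with the summed reads rounded to whole numbers. There were 47.2 reads of the 5′ arm for each read of the 3′ arm in ‘Ant’, and 4.60 in ‘Mix’. The difference, ‘Ant’ minus ‘Mix’, was -15.8 percentage points, a log2 odds ratio of -3.36 (interval -3.61 to -3.11, two-sided Fisher's exact p = 2.36e-169). In miR161 the share moved the other way. The 3′ arm gave 12.1% in ‘Ant’ (11.2% to 13.1%, 4809 reads) and 6.11% in ‘Mix’ (5.30% to 7.00%, 3160 reads), a log2 odds ratio of 1.08 (0.84 to 1.34, two-sided Fisher's exact p = 1.22e-19). With the bra sequences alone, which lie on MIR161 and MIR400 themselves, the differences were -15.1 percentage points for miR400 and 6.03 for miR161. The 5′ arm held most reads of both families in both libraries.

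**Figure D4:**
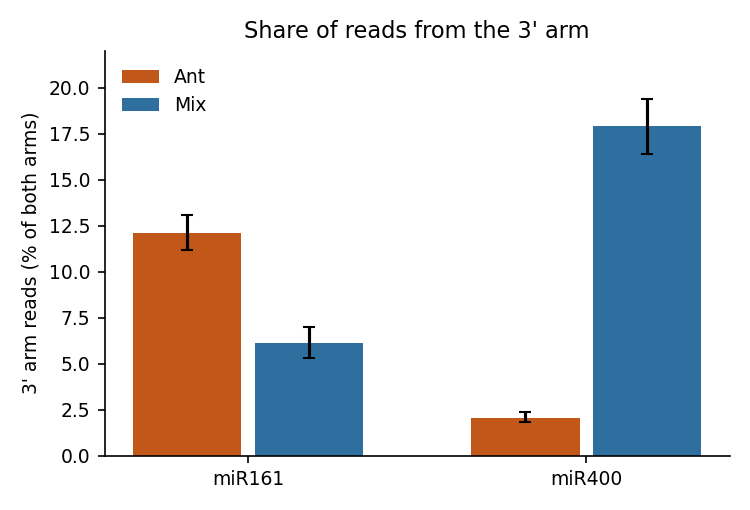
Reads of the 3′ arm as a percent of the reads of both arms for miR161 and miR400, with ‘Ant’ in orange and ‘Mix’ in blue and Clopper-Pearson 95% intervals as error bars. The share is higher in ‘Ant’ for miR161 (12.1%, against 6.11% in ‘Mix’) and lower in ‘Ant’ for miR400 (2.07%, against 17.9% in ‘Mix’).

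For the same contrast over the whole table, the most read sequence of each arm was taken for every precursor position with at least 10 reads per arm in 1 of the libraries, which gave 239 distinct pairs of arms. The log2 ratio of the 3′ arm minus that of the 5′ arm was -3.30 for MIR400 and 1.09 for MIR161, and the median absolute difference over all pairs was 1.18. By absolute difference MIR400 was 30th and MIR161 131st of the 239. Opposite calls of the arms, as at MIR400, were found in 17 pairs (7.11%), of which 6 had the 5′ arm higher and the 3′ arm lower in ‘Ant’. The difference at MIR161 is thus near the middle of the table, and that at MIR400 is in its outer part without being at the end. Some pairs share an arm sequence, such as bra-miR156a-5p, so the pairs are not independent. MIR400 counts as an opposite call through bra-miR400-3p, whose log2 ratio of -1.06 is just past the threshold.

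**Figure D5:**
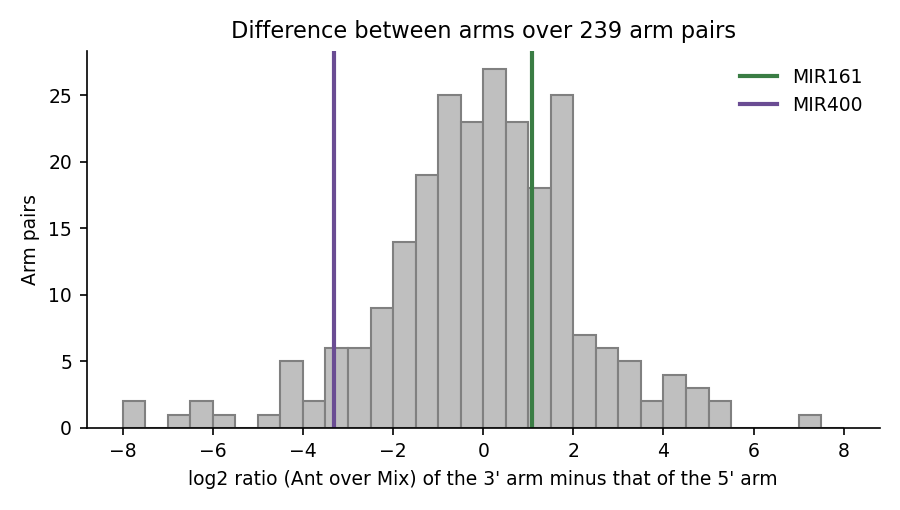
Number of arm pairs, of 239, by the log2 ratio (‘Ant’ over ‘Mix’) of the 3′ arm minus that of the 5′ arm, with lines at MIR161 (green, 1.09) and MIR400 (violet, -3.30). MIR161 lies in the bulk of the pairs and MIR400 in the left tail.

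Families related to small RNA pathways were read alongside. They include miR162, miR168 and miR403, which act on the small RNA machinery and are not given here as regulators of PPR or TAS transcripts. Of 45 names in 7 families, 22 were called (48.9%, against 48.0% of all names). Of these 3 were higher (6.67%, against 27.1%) and 19 lower in ‘Ant’ (42.2%, against 20.9%). Their median log2 ratio was -0.91 over the 44 names with reads in both libraries. The miR168 names, 13 over 10 distinct sequences, gave 10 of the 19 lower names, so the pooled share rests largely on that family. The list of families was fixed with earlier results of these data known, so the shares describe it and test nothing. Of the triggers of other trans-acting siRNAs, miR390 had a summed ratio below 0 and miR828 above 0. The miR828 sum in ‘Mix’, 3 reads, does not exceed the floor, so this contrast in direction rests on few reads. For miR390, which acts on TAS3 transcripts, the 8 distinct sequences summed to 4149 reads in ‘Ant’, against 5910.83 in ‘Mix’ (log2 -0.56), and its most read sequence, aly-miR390a-5p, had 2364 reads in ‘Ant’, against 4146.5 in ‘Mix’, and was not called. For miR391, a relative of miR390, the sum was 100 reads in ‘Ant’, against 9902 in ‘Mix’, and bra-miR391-3p had a log2 ratio of -6.68 (interval -7.01 to -6.36). For miR828, which acts on TAS4 and MYB transcripts, the sum was 53 reads in ‘Ant’, against 3 in ‘Mix’. Most of these, 39 in ‘Ant’ and 2 in ‘Mix’, were of ath-miR828, which was called higher with a log2 ratio of 4.24 and a wide interval of 2.29 to 7.34.

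miR158, an abundant miRNA of Brassicaceae, had no call among its 3 names, and bra-miR158-3p had 231032 reads in ‘Ant’, against 343088 in ‘Mix’ (log2 -0.62). Among the miRNAs that act on the small RNA machinery, all of the most read sequences were below 0. bra-miR162-3p (miR162 acts on DCL1) had a log2 ratio of -2.48 and bra-miR168b-5p_1ss21CA (miR168 acts on AGO1) of -1.45, and both were called lower. bra-miR403-3p (miR403 acts on AGO2) had a log2 ratio of -0.87 and was not called. Of the miR168 names 10 of 13 were lower in ‘Ant’, of the miR162 names 2 of 9 were lower and 1 was higher, and of the miR403 names 2 of 5 were lower. Of the 4 members called, bra-miR400-5p and bra-miR161-3p were higher, and bra-miR400-3p and aly-miR400-3p were lower. The members were thus called in both directions evenly, while the called names of the related families were mostly lower (3 higher and 19 lower), 10 of them miR168 names.

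The distinct sequences of other families whose log2 ratios were nearest to those of the most read members were taken among the 103 that reached 1000 normalized reads in either library. Nearest to bra-miR161-5p (0.46) were bra-miR396-3p (0.37), bra-miR1140 (0.35) and bra-miR156c-3p (0.60). Nearest to bra-miR400-5p (2.25) were bra-miR5711 (2.12), bra-miR9556-5p_R-2_1ss12AT (2.11) and bna-miR171f_1ss14CT (2.40). With only 2 libraries, likeness here means a similar ratio and no more.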

How the data were processed

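The authors cleaned the reads, kept those of miRNA length (the listed sequences have 18 to 25 bases) and identified miRNAs against miRBase. The aligner is not given in the sources used here. The read columns deposited by the authors hold fractions and were treated as estimated counts. The deposited normalized signal is these reads times 1 factor per library (0.9843 for ‘Ant’, 1.0160 for ‘Mix’). The authors also deposited the GC percent of each precursor and, as scores, its folding energy and MFEI. 

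Members were taken by the number after miR or MIR, and each sequence was counted once. The members and lists were chosen with earlier results of these data known. Every member is named, with the most read sequence of each related family and the 3 nearest ratios for the most read miR161 and miR400 sequences. Names were tested on rounded normalized values against their totals over all 1220 names. Log2 ratios have exact binomial intervals on rounded reads, at 95%. Values at or under 3 reads in both libraries get no ratio. The chi-square and Fisher calls and the intervals were tested on simulated data that held counting error only. That test therefore does not cover spread between plants or library preparations. RefSeq's gene table of CAAS_Brap_v3.01 gave gene names. Alternatives were other scalings, pseudocounts of 1 and 10, a read minimum of 10, distinct sequences, a log2 threshold of 2, Benjamini-Hochberg adjustment, and edgeR's exact test on rounded reads at an assumed coefficient of variation of 0.4, with library sizes from the factors. Python 3.11.15, numpy 2.4.6, pandas 2.3.3, scipy 1.17.1, matplotlib 3.10.9, R 4.3.3 and edgeR 4.0.16 were used.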

Additional observations from a re-analysis of the deposited data

How the results depend on the processing

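For 6 members under 8 alternatives each, 43 of 48 outcomes (called or not called) stayed the same, 5 calls were lost and 0 reversed. Not all 48 were free to change. Benjamini-Hochberg adjustment, the log2 threshold of 2 and edgeR's exact test keep the main log2 ratio. Under them bra-miR161-5p (0.46) and aly-miR161-5p.2_1ss5TC (0.95) could not become called. The pseudocount settings keep the main p-values. ath-miR400_R+2 has no ratio. aly-miR161-5p.2_1ss5TC, not called, passed a log2 ratio of 1 (1.05) when scaled by distinct miRNA reads, and aly-miR400-3p had -1.29 with a pseudocount of 10. The call of bra-miR161-3p (1.55) was lost with edgeR's exact test at a coefficient of variation of 0.4 and with a log2 threshold of 2. That of bra-miR400-3p (-1.06) was lost under both of these and, at -0.96, when scaled by reads over distinct miRNA sequences. Scaling by valid reads, by distinct miRNA reads and by TMM factors moved all log2 ratios by -0.08, 0.10 and -0.21. Under these, summed miR161 reads had log2 ratios of 0.48, 0.66 and 0.35 and summed miR400 reads of 1.92, 2.09 and 1.79. The arm shares kept direction and Fisher's exact p under 0.05 with only the B. rapa sequences. These are also the most read sequences of each arm, so taking the most read ones is the same alternative. It leaves out few reads, so the outcome had little room to change. Calls over all names fell to 378, 210 higher and 168 lower, with edgeR's exact test, and lay between 434 and 588 of 1220 with other scalings, thresholds or adjustment. With a minimum of 10 reads 552 of 848 names were called (65.1%), and counting each sequence once 536 of 1152 (46.5%). No paired analysis was possible because each group has 1 library, and for the same reason no library could be left out. Depth limits ath-miR400_R+2, aly-miR161-5p.2_1ss5TC and aly-miR400-3p, each with at most 22.5 reads in either library. Differences between the tissues, the plants and the library preparations cannot be told apart.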
